A study of Saccharomyces cerevisiae with 137 samples.

Results

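A cold shock and the recovery from it were followed in the transcripts of 10 sulfate assimilation and methionine genes of Saccharomyces cerevisiae, budding yeast. The genes, taken by name from a table of 6178 open reading frames, were MET3 (YJR010W), MET14 (YKL001C), MET16 (YPR167C), MET5 (YJR137C), MET10 (YFR030W), MET2 (YNL277W), MET6 (YER091C), SAM1 (YLR180W), SAM2 (YDR502C) and CYS3 (YAL012W). All 10 were on the arrays, and all were tested in every comparison. In the gene table used here none of them overlaps another gene.

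Cultures in early log phase in the rich medium YEPD were moved from 30 °C to 13 °C and returned to 30 °C after 60 min. RNA was taken before the shift (t0), after 15, 30 and 60 min of cold (t15, t30, t60), and after 30 and 60 min of recovery (t90, t120). Each of 137 arrays set one later sample against the t0 sample of the same flask. The strains were wild type (BY4741, with flask 0 being BY4739) and 6 strains made from BY4741 that each lack a transcription factor, labelled delCIN5, delGLN3, delHAP4, delHMO1, delSWI4 and delZAP1. Wild type grew without drug and all deletion strains grew with 200 µg/mL G418, so that the deletion and the drug cannot be told apart in any comparison with wild type. Wild type had 5 flasks, delGLN3 had 5 and each other strain had 4, with 3 to 5 arrays per strain and time. No t15 array of delSWI4 was analysed here.

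Each culture came from a single colony, and per strain a pair of flasks shared a day of growth. Arrays of 1 flask share the same t0 sample.

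Yeast cells take up sulfate, activate it with ATP, reduce it stepwise to sulfide and join the sulfide to a carbon chain derived from homoserine. The homocysteine so formed is methylated to methionine, converted by way of cystathionine to cysteine, or regenerated after S-adenosylmethionine, the methyl donor of the cell, has been used. Most of these genes are known targets of the activator Met4 with its partners Cbf1, Met31 and Met32, and the pathway is repressed when methionine and cysteine are plentiful, as in rich medium. BY4741 also carries a deletion of MET17 (named MET15 in older work), the sulfhydrylase that joins sulfide to O-acetylhomoserine, and of LEU2 and URA3, so that every flask except wild-type flask 0 lacks that enzyme.

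Values are scores: log ratios, shifted sample to t0, which the authors had scaled so that 1 unit is the scaled median absolute deviation of the array. A score above 0 means more transcript after the shift. A score is not a fold change: its size is relative to the other frames of the array. That each ratio runs from t0 to the shifted sample is likely from the sample titles but was not shown from raw intensities. "Cold" below is the mean of t30 and t60, "recovery" the mean of t90 and t120, and "rewarming" is recovery minus cold in the same strain. A gene was said to change when the Benjamini-Hochberg adjusted p of limma's moderated test over all frames was below 0.05. Fitted differences are given ± SE.

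Some arrays stood apart. Among the delHMO1 arrays at t15, flasks 3 and 4 had the same dye orientation and correlated at r = -0.476 over all frames, so that the direction of the delHMO1 ratios is not settled. Flasks 2 and 4, of opposite dye orientation, correlated at -0.49 at t15, -0.419 at t90 and -0.41 at t120. As deposited, both correlated by rank above 0 at every time with the median profile of their own phase in the other strains. These rank correlations ran from 0.11 to 0.57 in flask 2 and from 0.06 to 0.34 in flask 4. With the sign of delHMO1 flask 2 or of flask 4 turned, still none of the 10 genes passed the test in any delHMO1 comparison. By a rule set after the data were seen, 4 arrays resembled the other phase (cold against recovery) of the remaining strains. They were delGLN3 t60 flask 2, delHAP4 t90 flask 4, and delHMO1 t60 and t90 of flask 3. The rule used all frames, the 10 genes among them. Passing the threshold without these arrays is therefore partly built into the rule and is no support for a change. Wild-type flasks 0 and 1 were hybridised to GCAT chips (9 arrays) and all other flasks to Ontario chips (128 arrays). In wild type the shifted sample was in Cy5 in flasks 0 to 2, the GCAT flasks among them, and in Cy3 in flasks 3 and 4. Slides were coated with PEG after washing, except for 30 arrays labelled as having none: all 18 of delHAP4 and those of delSWI4 flasks 2 to 4. Every wild-type slide was coated, so that coating and deletion cannot be told apart in delHAP4 against wild type, and in delSWI4 the coated slides are those of flask 1 alone. As a check of specificity, frames that a strain lacks were called in 7 of 84 comparisons (8.33%). MET17 itself was called in 5 of 18 comparisons of the deletion strains (27.8%), with sizes from 0.71 to 1.28. LEU2 was called in 1 of 24 at a size of 2.09, and the 6 deleted factors in 1 of 18. Some calls of the 10 genes below, such as MET5 in delGLN3 in the cold (-0.71), are no larger than those of MET17. The reason for the scores of absent frames was not tested.

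**Figure D1:**
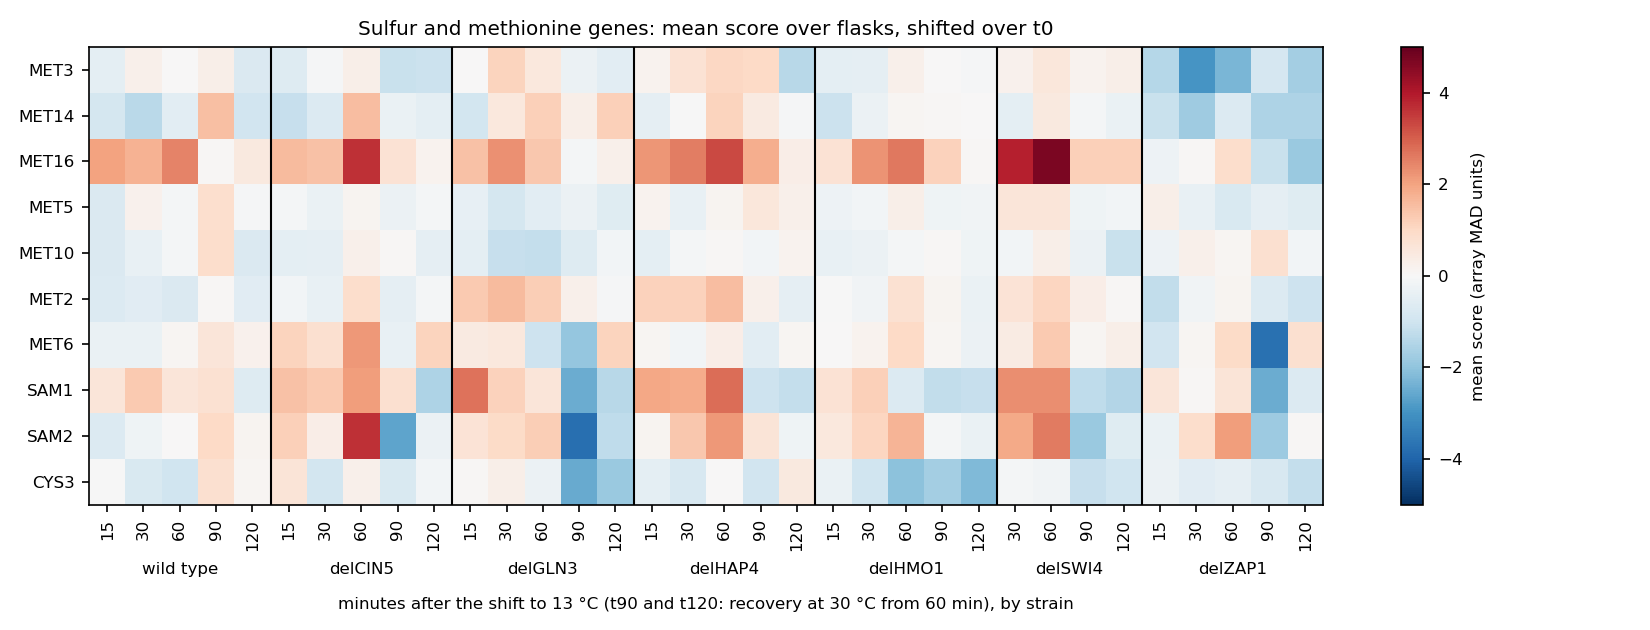
Mean score over flasks of the 10 genes (rows) in the 34 strain and time groups (columns, in minutes after the shift), red above and blue below t0. The MET16 row is above 0 at t15 to t60 in 6 strains (t30 and t60 in delSWI4) and runs from -0.25 to 0.86 in delZAP1. The mean of MET16 in delSWI4 at t60 is 4.72, and that of MET3 in delZAP1 at t30 is -2.94.

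In wild type 1 gene of the 10 rose throughout the cold. MET16, which encodes the reductase that turns activated sulfate (PAPS) into sulfite, rose at t15, t30 and t60. MET14, the kinase that makes PAPS, fell at t30. On return to 30 °C MET16 fell back, while MET14, SAM2 and CYS3 were higher in the mean of t90 and t120 than in the cold. None of MET14, SAM2 and CYS3 passed the test at t120 minus t60. There MET14 was -0.49 (adjusted p = 0.51), SAM2 0.12 (adjusted p = 0.86) and CYS3 1.07 (adjusted p = 0.21).

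MET16 scored 0.71, 3.00, 2.04 and 2.25 at t15 in wild-type flasks 1 to 4. At t30 it scored 0.18, 0.27, 2.61, 1.77 and 3.90 in flasks 0 to 4, and at t60 1.94, 1.26, 4.13 and 2.65 in flasks 0 to 3. Every one of these 13 values was above 0, and flasks 0 and 1, on GCAT chips, were the lowest at t30 and t60. The fitted score was 1.96 ± 0.49 at t15 (adjusted p = 0.009), 1.74 ± 0.44 at t30 (adjusted p = 0.0076) and 2.64 ± 0.49 at t60 (adjusted p = 0.00047). The t60 call was kept in every alternative tried. The t15 call was lost without flask 2 (1.65, adjusted p = 0.1) or flask 3 (1.93, adjusted p = 0.072), and the t30 call without flask 2 (1.53, adjusted p = 0.068) or flask 4 (1.21, adjusted p = 0.073). In recovery MET16 lay between -0.90 and 0.81 at t90 and between -0.79 and 2.22 at t120, on both sides of 0.

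MET14 at t30 scored -3.31, -1.04, -0.63 and -0.38 in wild-type flasks 0, 2, 3 and 4. All 4 were below 0 and flask 0 was the lowest. The fitted score of -1.33 ± 0.40 (adjusted p = 0.023) became -0.69 (adjusted p = 0.26) without flask 0, -0.69 (adjusted p = 0.23) on Ontario chips alone and -1.44 (adjusted p = 0.084) without flask 2. Flask 1 had no MET14 value at t30, so that the Ontario fit drops the same t30 value as the fit without flask 0. Flask 0 is also the only BY4739 flask, so that chip and parent strain cannot be told apart here. At t90 flasks 0, 2, 3 and 4 scored 0.47, 0.97, 2.76 and 1.83, all above 0, with a fitted score of 1.52 ± 0.40 (adjusted p = 0.023). By t120 they were lower again, at -1.99, -1.20, 0.04 and -0.23. The t90 call was lost without flask 2 (1.69, adjusted p = 0.083), flask 3 (1.11, adjusted p = 0.22) or flask 4 (1.43, adjusted p = 0.091).

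SAM2, which encodes one of the 2 S-adenosylmethionine synthetases, scored 0.27, 0.49, 1.19, 1.36 and 1.69 at t90 in wild-type flasks 0 to 4. All 5 were above 0, with a fitted score of 1.00 ± 0.29 (adjusted p = 0.042). The call was lost without flask 1 (1.13, adjusted p = 0.064), flask 2 (0.95, adjusted p = 0.14), flask 3 (0.91, adjusted p = 0.16) or flask 4 (0.83, adjusted p = 0.18).

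In wild type 1 of the 10 passed at t15, 2 at t30, 1 at t60, 2 at t90 and none at t120 (limma; 2 had an unadjusted p below 0.05 there). Of all frames, 10.8% passed at t15, 15.1% at t30, 15.7% at t60, 5.6% at t90 and 2.69% at t120, so that the 10 genes were called at about the background share at t15 and by counts of at most 2 at the other times. The median score of the 10 was -0.59 at t15, -0.27 at t30 and -0.08 at t60, against -0.01, 0.03 and 0.06 over all frames. At t90 all 10 estimates were above 0, with a median of 0.80 against 0.01 over all frames. At t120 the median was -0.32. The groups share their t0 sample within a flask, so that the 5 times are not independent.

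**Figure D2:**
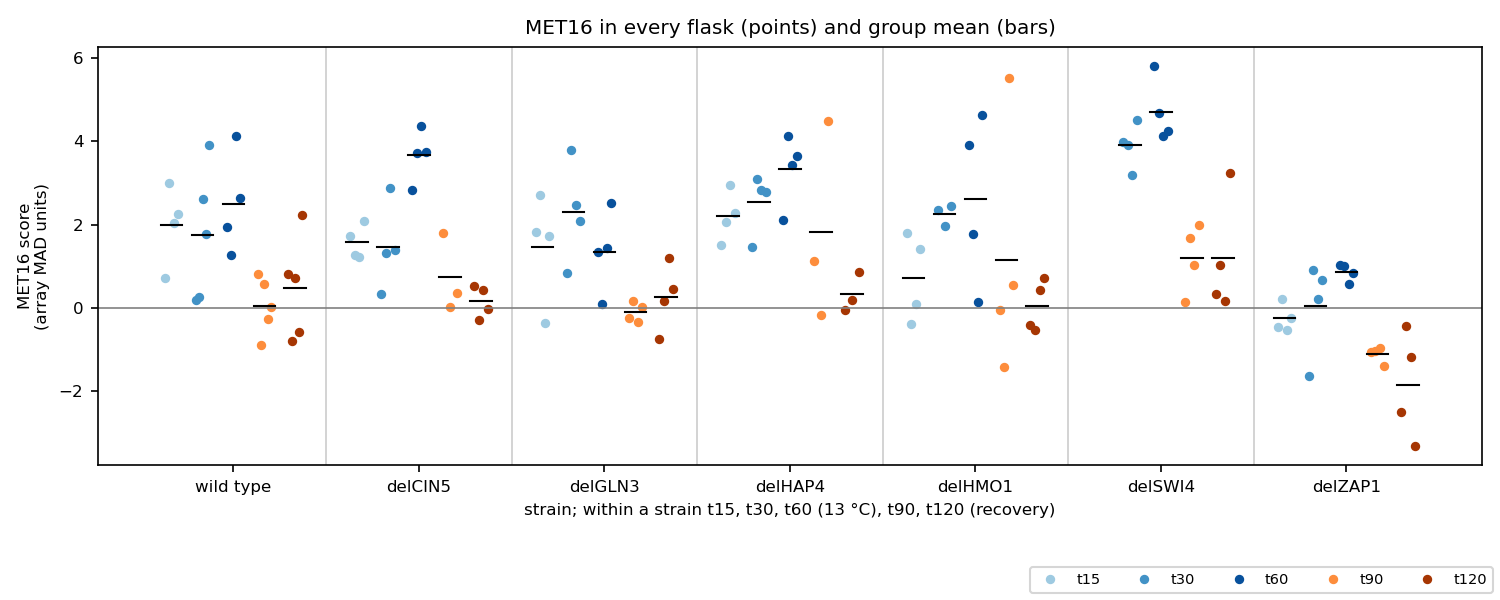
MET16 scores by strain, with 1 point per flask and array coloured by time (t15 to t60 at 13 °C in blue, t90 and t120 in recovery in orange and brown); horizontal bars are group means. In delSWI4 the 8 values at t30 and t60 lie from 3.20 to 5.81, and in delZAP1 no value exceeds 1.02.

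MET16 was the gene of the 10 that changed in the cold in the most strains. It was higher in the cold in delCIN5, delGLN3, delHAP4 and delSWI4, as in wild type. In delHMO1 it had a fitted score of 2.29 that missed the threshold, and in delZAP1 one of 0.45. The highest scores were those of delSWI4.

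At t60, MET16 scored 2.83, 3.72, 4.38 and 3.74 in delCIN5 flasks 1 to 4. It scored 1.34, 0.08, 1.44 and 2.51 in delGLN3 flasks 1 to 4, where the 0.08 comes from the array that resembled recovery. In delHAP4 flasks 1 to 4 it scored 2.12, 4.12, 3.42 and 3.64. These values were all above 0 and overlapped the wild-type range of 1.26 to 4.13. Over both cold times the fitted score was 2.57 ± 0.33 in delCIN5 (adjusted p = 4.3e-05), 1.84 ± 0.36 in delGLN3 (adjusted p = 0.0017) and 2.93 ± 0.41 in delHAP4 (adjusted p = 8.6e-05). For delGLN3 the call was lost at t60 alone (1.35, adjusted p = 0.16).

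In delSWI4 MET16 scored 3.98, 3.92, 3.20 and 4.52 at t30 and 5.81, 4.68, 4.12 and 4.25 at t60 in flasks 1 to 4. The fitted cold score was 4.31 ± 0.36 (adjusted p = 9.8e-08). Per flask the cold mean ran from 3.66 to 4.90, against 0.77 to 3.90 in wild type, so that the ranges overlapped. The difference from wild type was 2.11 ± 0.53 (adjusted p = 0.097), and on coated slides alone 2.70 (adjusted p = 0.87). It passed the threshold without the wild-type flask 2 (2.45, adjusted p = 0.049) or flask 4 (2.46, adjusted p = 0.02). In recovery delSWI4 scored 0.13, 1.67, 1.02 and 1.98 at t90 and 0.32, 1.03, 0.17 and 3.25 at t120, all above 0. The fitted recovery score was 1.20 ± 0.36 (adjusted p = 0.029). That call was lost without flask 2 (1.15, adjusted p = 0.15), flask 3 (1.40, adjusted p = 0.057) or flask 4 (0.72, adjusted p = 0.17).

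In delZAP1 MET16 scored -1.64, 0.92, 0.20 and 0.67 at t30 and 1.02, 1.01, 0.57 and 0.83 at t60 in flasks 2 to 5. All 4 values at t60 lay below the lowest of wild type at that time, and the share of all frames for which this holds was not counted. The fitted cold score was 0.45 ± 0.33 (adjusted p = 0.36). The difference from wild type in the cold was -1.75 ± 0.51 (adjusted p = 0.23), and the flask means, -0.31 to 0.96 against 0.77 to 3.90, overlapped. On Ontario chips alone, which leaves wild-type flasks 2 to 4, the difference was -2.72 (adjusted p = 0.023). In recovery MET16 scored -1.07, -1.04, -0.97 and -1.40 at t90 and -2.51, -0.44, -1.19 and -3.32 at t120. It was below t0 in every flask, with a fitted score of -1.49 ± 0.33 (adjusted p = 0.0076), a call lost without flask 5 (-1.20, adjusted p = 0.1). The recovery difference from wild type was -1.75 ± 0.51 (adjusted p = 0.13).

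In delHMO1 MET16 scored 2.36, 1.97 and 2.44 at t30 in flasks 1, 3 and 4 and 3.92, 1.78, 0.14 and 4.63 at t60 in flasks 1 to 4. All 7 were above 0, the lowest being the flask 3 array that resembled recovery. Over both times the score was 2.29 ± 0.83 (adjusted p = 0.17). Without flask 3 it was 2.68 (adjusted p = 0.015) and without the arrays that resembled the other phase 2.70 (adjusted p = 0.00052). With the sign of flask 2 turned it was 1.89 (adjusted p = 0.23), and with that of flask 4 turned 0.43 (adjusted p = 0.98). Ordered by cold score, the strains ran delSWI4, delHAP4, delCIN5, delHMO1, wild type, delGLN3 and delZAP1. Neighbouring strains were not tested against each other, and no deletion strain differed from wild type in MET16 past the threshold.

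**Figure D3:**
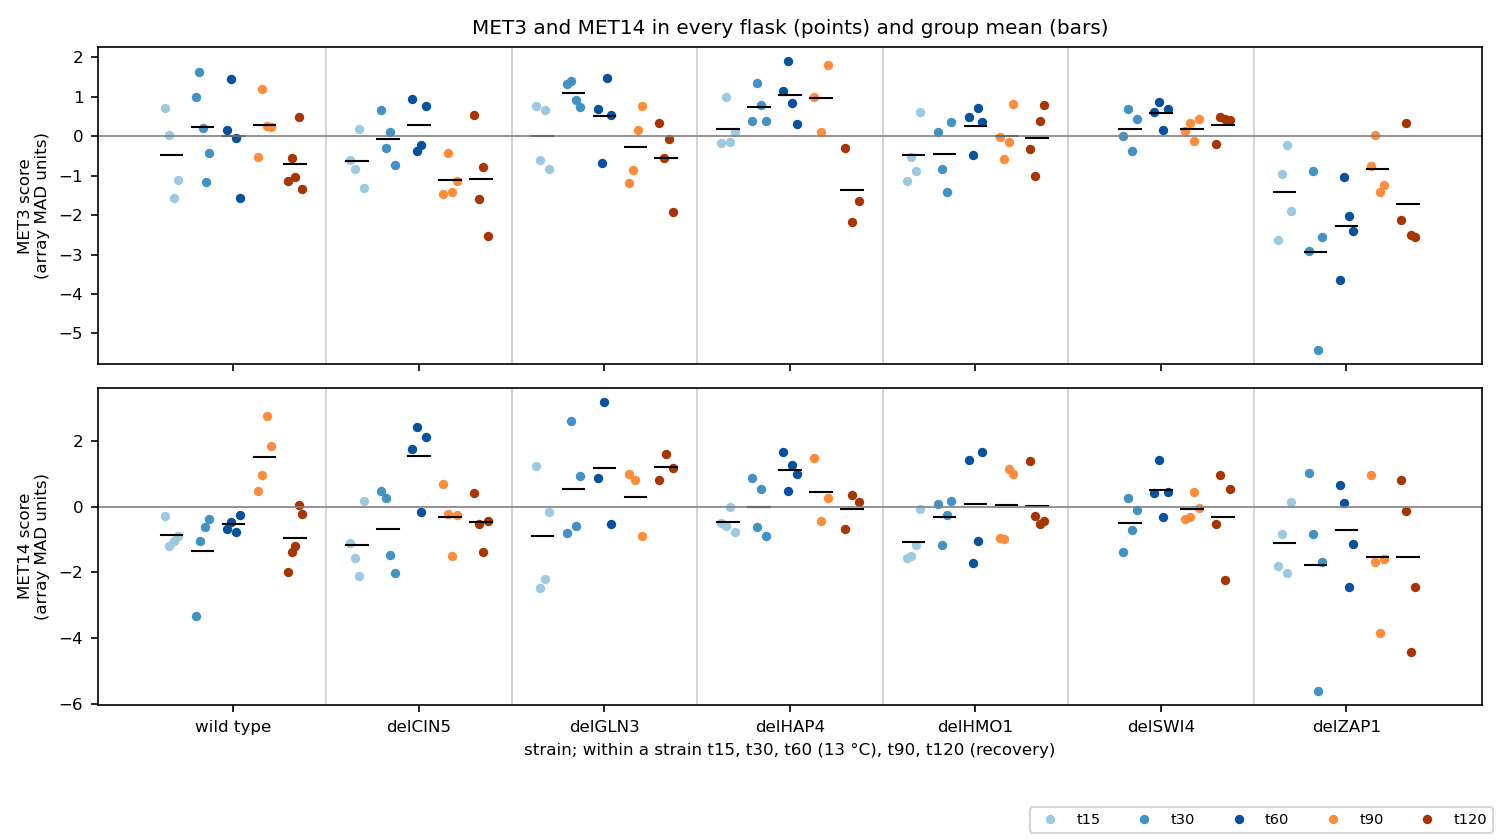
MET3 (top) and MET14 (bottom) scores by strain, with 1 point per flask and array coloured by time and bars at group means. All 8 MET3 values of delZAP1 at t30 and t60 lie below 0, from -5.42 to -0.88; MET14 spreads from -5.59 to 1.01 among the delZAP1 flasks at t30.

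MET3 encodes ATP sulfurylase, the first enzyme of the pathway. Its clearest change was a fall in the cold in delZAP1, where flasks 2 to 5 scored -2.90, -0.88, -5.42 and -2.56 at t30 and -3.64, -1.03, -2.02 and -2.40 at t60. Every flask was below 0 and flask 3 was the least so. The fitted cold score was -2.61 ± 0.46 (adjusted p = 0.00038), a call kept in every alternative tried. In wild type MET3 scored 0.99, 1.62, 0.20, -1.15 and -0.42 at t30 in flasks 0 to 4, with the GCAT flasks 0 and 1 the highest. The flask means of the cold overlapped, -3.72 to -0.95 in delZAP1 against -1.35 to 1.54 in wild type.

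Against wild type the MET3 difference in delZAP1 in the cold was -2.69 ± 0.58 (adjusted p = 0.042). On Ontario chips alone it was -1.93 (adjusted p = 0.54). It also missed the threshold without delZAP1 flask 2 (-2.47, adjusted p = 0.15), flask 4 (-2.32, adjusted p = 0.11) or flask 5 (-2.73, adjusted p = 0.11). The same held without wild-type flask 0 (-2.55, adjusted p = 0.12), flask 1 (-2.29, adjusted p = 0.32) or flask 4 (-2.82, adjusted p = 0.068). In recovery delZAP1 scored -0.74, 0.04, -1.41 and -1.23 at t90 and -2.12, 0.34, -2.50 and -2.56 at t120. The fitted recovery score, -1.27 ± 0.46, had an adjusted p of 0.12.

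In delHAP4 MET3 scored 0.39, 1.35, 0.79 and 0.40 at t30 and 1.14, 1.90, 0.84 and 0.32 at t60, all above 0. The fitted cold score was 0.89 ± 0.26 (adjusted p = 0.015). Without flask 2 it was 0.65 (adjusted p = 0.11). In delGLN3 the score was of like size, 0.80 ± 0.31, with an adjusted p of 0.076. Without the array that resembled recovery it was 0.99 (adjusted p = 0.025). In delCIN5, delHMO1 and delSWI4 the cold scores of MET3 were 0.11, -0.09 and 0.39, none past the threshold.

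MET14 passed the test in no deletion strain over the mean of the cold or recovery times. At t60 alone it passed in delCIN5 (1.54, adjusted p = 0.033, against 0.42 over both cold times) and in delHAP4 (1.10, adjusted p = 0.039, against 0.54), and t120 minus t60 passed in delCIN5 (-2.02, adjusted p = 0.016, against -0.83 on rewarming). In 1 fit of all strains it passed in delZAP1 in the cold (adjusted p = 0.04) and in recovery (adjusted p = 0.028). Its flasks disagreed: in delZAP1 at t30 flasks 2 to 5 scored 1.01, -0.84, -5.59 and -1.69, and in delGLN3 at t30 flasks 1, 2, 4 and 5 scored -0.79, 2.59, -0.60 and 0.94. Flask 2 of delZAP1 was above 0 at t30, t60, t90 and t120 and flask 4 was the lowest at each of these times. Without flask 2 the delZAP1 score was -1.93 in the cold (adjusted p = 0.024) and -2.35 in recovery (adjusted p = 0.021), against -1.24 (adjusted p = 0.16) and -1.54 (adjusted p = 0.17) with all flasks. Without flask 2 the recovery difference from wild type was -2.63 (adjusted p = 0.027), and with it -1.82 (adjusted p = 0.28).

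MET5 and MET10 encode the subunits of sulfite reductase, which turns sulfite into sulfide. By group means they moved least: the means of the 34 groups had an SD of 0.42 for MET5 and 0.47 for MET10, against 0.58 for the median frame and 1.42 for MET16. Between flasks of a group the pooled SD was 0.73 for MET5 and 0.96 for MET10, against 0.90 for the median frame. In delZAP1 the flasks of MET10 disagreed. Flasks 2 to 5 had means of 2.21, 0.52, -0.81 and -1.26 in the cold and 2.18, 2.37, -2.13 and -1.06 in recovery. Only in delGLN3 in the cold did either gene pass the test, and both were lower there.

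MET10 in delGLN3 scored -1.45, -1.50, -1.51 and -0.13 at t30 in flasks 1, 2, 4 and 5, and -1.29, -2.09, -0.38 and -1.08 at t60 in flasks 1 to 4. All 8 values were below 0. The fitted score was -1.16 ± 0.26 (adjusted p = 0.0041), and at t60 alone -1.18 (adjusted p = 0.098). MET5 in the same arrays scored -0.20, -0.64, -1.48 and -1.16 at t30 and -0.11, -1.21, -0.39 and -0.45 at t60, again all below 0. Its fitted score was -0.71 ± 0.23 (adjusted p = 0.036). That call was lost without flask 2 (-0.65, adjusted p = 0.081), flask 3 (-0.75, adjusted p = 0.08), flask 4 (-0.63, adjusted p = 0.18) or flask 5 (-0.65, adjusted p = 0.12), and without the array that resembled recovery (-0.62, adjusted p = 0.067). Neither gene differed from wild type past the threshold, with differences of -0.91 ± 0.36 for MET10 (adjusted p = 0.35) and -0.78 ± 0.35 for MET5 (adjusted p = 0.42).

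MET2 encodes homoserine O-acetyltransferase, which makes the carbon acceptor for sulfide. It rose in the cold in delGLN3 and delHAP4, and both strains differed from wild type. In wild type it scored 0.09, -0.30, -0.27, -0.51 and -1.76 at t30 in flasks 0 to 4 and -1.72, -1.22, 0.56 and -0.47 at t60 in flasks 0 to 3. In delGLN3 the scores were 2.17, 1.06, 1.98 and 1.18 at t30 in flasks 1, 2, 4 and 5 and 2.10, 0.13, 1.16 and 1.50 at t60 in flasks 1 to 4. In delHAP4 flasks 1 to 4 scored 1.04, 1.68, 0.66 and 1.28 at t30 and 1.55, 1.80, 1.63 and 1.22 at t60.

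All MET2 values of both strains at t30 and t60 were above 0. Their flask means in the cold, 0.59 to 2.13 in delGLN3 and 1.15 to 1.74 in delHAP4, lay above those of wild type, -1.76 to 0.15. How large a share of all frames separates in this way was not counted. The fitted score was 1.42 ± 0.30 in delGLN3 (adjusted p = 0.0028) and 1.36 ± 0.26 in delHAP4 (adjusted p = 0.00073). The difference from wild type was 2.07 ± 0.43 in delGLN3 (adjusted p = 0.011) and 2.01 ± 0.41 in delHAP4 (adjusted p = 0.015). Both comparisons use the same wild-type flasks, and all delHAP4 slides were uncoated and all wild-type slides coated. On Ontario chips alone the differences were 1.87 (adjusted p = 0.087) and 1.82 (adjusted p = 0.07). The delGLN3 difference missed the threshold without delGLN3 flask 1 (1.83, adjusted p = 0.06) or flask 4 (1.97, adjusted p = 0.086) or wild-type flask 4 (1.90, adjusted p = 0.055). That of delHAP4 missed it without any one of its own flasks 1 to 4 (1.88 to 2.08, adjusted p from 0.053 to 0.11) and without wild-type flask 1 (1.97, adjusted p = 0.07) or flask 4 (1.84, adjusted p = 0.068).

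MET6 encodes methionine synthase, which methylates homocysteine. It passed the test in no comparison. Its spread between flasks of a group, 1.76 (pooled SD), was larger than that of 98.0% of frames. In delZAP1, for example, flasks 2 to 5 scored 5.17, 1.12, -2.69 and 0.20 at t60, and flasks 3 to 5 scored -2.07, -9.38 and 0.19 at t90. Among all its scores in the cold, the nearest to the threshold was 1.60 ± 0.55 in delCIN5 (adjusted p = 0.057), with flasks 2 to 4 at -0.05, 2.92 and 3.66 at t60. Without delCIN5 flask 2 the score was 2.30 (adjusted p = 0.016). On rewarming in delSWI4 the difference of -0.65 ± 0.42 (adjusted p = 0.22) became -1.09 (adjusted p = 0.0072) without flask 1, which scored 3.22 at t90 against -1.24 to -0.76 in the other flasks.

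**Figure D4:**
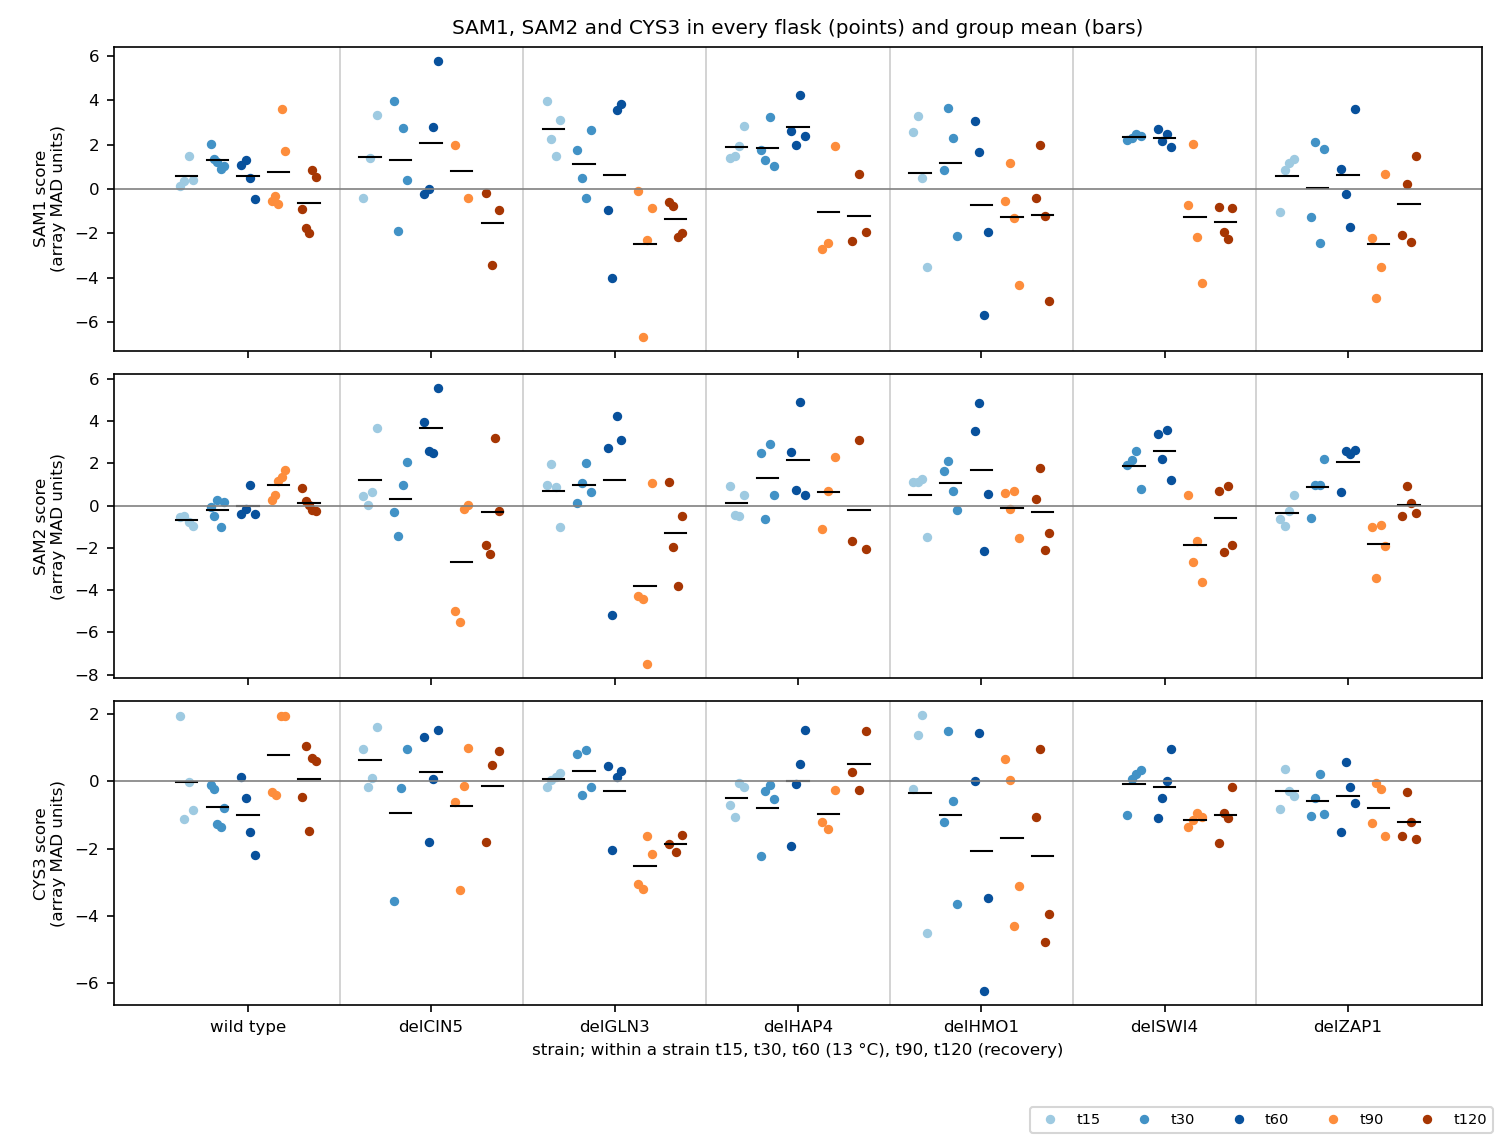
SAM1 (top), SAM2 (middle) and CYS3 (bottom) scores by strain, with 1 point per flask and array coloured by time and bars at group means. The 8 SAM1 values of delSWI4 at t30 and t60 lie between 1.89 and 2.72, while SAM1 at t60 in delHMO1 spans -5.66 to 3.08; CYS3 in delGLN3 lies at -1.61 or below in every flask in recovery.

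SAM1 and SAM2 encode near-identical S-adenosylmethionine synthetases, and whether their probes tell them apart was not examined here. In the cold the estimates of both lay above t0 in delCIN5, delGLN3, delHAP4, delSWI4 and delZAP1. In recovery those of SAM1 lay below it in these 5 strains and those of SAM2 in all of them but delHAP4, with wide spreads. In delHMO1 the sign depended on the direction of single flasks. SAM1 scored 0.24 there in the cold, -1.10 with the sign of flask 2 turned and 1.25 with that of flask 4 turned, and in recovery -1.20, -2.0 and 1.14. SAM2 scored 1.38, -0.36 and 1.29 in the cold and -0.21, -0.61 and 0.49 in recovery. Past the threshold in the cold, SAM1 rose in delHAP4 and delSWI4, and SAM2 rose in delHAP4, delSWI4 and delZAP1. The pooled SD between flasks was 2.03 for SAM1 and 1.75 for SAM2, against 0.90 for the median frame, larger than in 99.2% and 97.9% of frames.

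SAM1 in delSWI4 flasks 1 to 4 scored 2.20, 2.31, 2.47 and 2.38 at t30 and 2.72, 2.17, 2.50 and 1.89 at t60. At each time all 4 were above the wild-type values, a separation whose share over all frames was not counted. The fitted cold score was 2.33 ± 0.51 (adjusted p = 0.002). In delHAP4 flasks 1 to 4 SAM1 scored 1.77, 1.31, 3.26 and 1.03 at t30 and 2.60, 1.97, 4.24 and 2.41 at t60. The fitted score there was 2.32 ± 0.50 (adjusted p = 0.0018), and in both strains the call was kept in every alternative. In wild type all 5 flasks were above 0 at t30, at 2.02, 1.34, 1.23, 0.91 and 1.03. The fitted score of 1.30 ± 0.50 missed the threshold (adjusted p = 0.075), and passed it without flask 3 (1.40, adjusted p = 0.033).

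On slides mostly or all uncoated, the delSWI4 and delHAP4 differences from wild type in SAM1 in the cold were each 1.34, with SE 0.68 and 0.67 and adjusted p = 0.64 and 0.61. The flask means of both strains were 2.13 to 2.49 and 1.64 to 3.75, and those of wild type 0.23 to 1.55. The share of all frames whose flask means do not overlap was not counted, here or for the other genes. In delGLN3 SAM1 was 3.99, 2.28, 1.51 and 3.11 at t15 but spread from -3.99 to 3.85 at t60. The lowest of these, in flask 2, is the array that resembled recovery. Without flask 2 the delGLN3 cold score was 1.78 (adjusted p = 0.039), against 0.94 ± 0.76 (adjusted p = 0.42) with it. In delHMO1 flasks 1 and 2 scored 3.08 and 1.69 at t60, and flasks 3 and 4 scored -5.66 and -1.93.

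SAM2 in delSWI4 flasks 1 to 4 scored 1.91, 2.18, 2.61 and 0.81 at t30 and 3.40, 2.19, 3.59 and 1.23 at t60. In wild type it lay between -1.01 and 0.28 at t30 and between -0.41 and 0.96 at t60. The flask means of the cold in delSWI4 and wild type, 1.02 to 3.10 against -0.71 to 0.62, did not overlap. How many of all frames separate so was not counted. The fitted delSWI4 score was 2.24 ± 0.42 (adjusted p = 0.0005). The difference from wild type was 2.34 ± 0.47 in the cold (adjusted p = 0.025), and on Ontario chips alone 2.18 (adjusted p = 0.13). On coated slides alone, which leaves delSWI4 flask 1 and assumes that it varies like wild type, it was 2.76 (adjusted p = 0.14), and with the uncoated flasks 2 to 4 of delSWI4 2.21 (adjusted p = 0.03). It missed the threshold without delSWI4 flask 2 (2.36, adjusted p = 0.064) or flask 3 (2.06, adjusted p = 0.09), or without wild-type flask 0 (2.30, adjusted p = 0.058), flask 1 (2.28, adjusted p = 0.11) or flask 3 (2.18, adjusted p = 0.14).

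In recovery SAM2 in delSWI4 scored 0.51, -2.67, -1.68 and -3.59 at t90 and 0.69, -2.17, 0.95 and -1.87 at t120. Wild type at t90 lay between 0.27 and 1.69. The fitted difference from wild type was -1.80 ± 0.46 (adjusted p = 0.04), and delSWI4 flask 1, with a recovery mean of 0.60, lay within the wild-type range of 0.37 to 0.72. At t120 alone the difference was -0.74 (adjusted p = 0.63), and on Ontario chips alone -1.86 (adjusted p = 0.14). By recovery mean the uncoated flasks 2 to 4 were the lower ones, from -2.73 to -0.36. On coated slides alone, with delSWI4 flask 1 only, the difference was 0.03 (adjusted p = 1), and with flasks 2 to 4 it was -2.41 (adjusted p = 0.002). The part of the coating in this difference was not tested. It missed the threshold without delSWI4 flask 2 (-1.40, adjusted p = 0.26) or flask 4 (-1.30, adjusted p = 0.27) and without any 1 of the wild-type flasks 0 to 4 (-1.85 to -1.76, adjusted p from 0.058 to 0.086).

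SAM2 in delZAP1 scored -0.56, 0.96, 0.96 and 2.19 at t30 and 0.63, 2.59, 2.46 and 2.64 at t60 in flasks 2 to 5. Flask 2 was the lowest at both times. The fitted cold score was 1.48 ± 0.38 (adjusted p = 0.0078), a call lost without flask 4 (1.41, adjusted p = 0.056) or flask 5 (1.17, adjusted p = 0.097). In delHAP4 the cold score was 1.75 ± 0.59 (adjusted p = 0.029), with flasks at 2.52, 0.75, 4.93 and 0.49 at t60. It missed the threshold without flask 1 (1.50, adjusted p = 0.13) or flask 3 (1.03, adjusted p = 0.13). In delCIN5 all 4 flasks were high at t60, at 3.97, 2.58, 2.50 and 5.57. At t30 they scored -0.30, -1.43, 1.00 and 2.06, and the fitted cold score of 1.99 ± 0.70 had an adjusted p of 0.058. Without delCIN5 flask 2 the cold score was 2.47 (adjusted p = 0.036). Without the arrays that resembled the other phase SAM2 passed in the cold in delGLN3 (2.18, adjusted p = 0.035, against 1.13 and 0.42 with all arrays). It did so too in delHMO1 (1.97, adjusted p = 0.025, against 1.38 and 0.31). The rule that picked those arrays used SAM2 as well.

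Some other differences of SAM1 and SAM2 missed the threshold and passed it under some alternatives. The delZAP1 difference from wild type in SAM2 in the cold was 1.59 (adjusted p = 0.17), and it passed without delZAP1 flask 2 (2.07, adjusted p = 0.039) and with no replicate block (1.60, adjusted p = 0.034). The delCIN5 difference from wild type in SAM2 in recovery was -2.04 (adjusted p = 0.38), and without delCIN5 flask 3 it was -3.04 (adjusted p = 0.01). In delSWI4 in recovery SAM2 scored -1.23 (adjusted p = 0.055), and without flask 1 -1.84 (adjusted p = 0.008). With all flasks it passed with no block (adjusted p = 0.045), with a dye term (adjusted p = 0.016) and on frames without missing values (adjusted p = 0.047). SAM1 there scored -1.36 (adjusted p = 0.082), and passed without flask 2 (-1.83, adjusted p = 0.017) and with no block (adjusted p = 0.027). In delHAP4 in recovery SAM1 scored -1.17 (adjusted p = 0.36), and without the flask 4 array that resembled the cold -1.97 (adjusted p = 0.0077).

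CYS3 encodes cystathionine gamma-lyase, which releases cysteine from cystathionine. It did not pass the test in the cold in any strain. In recovery it fell below t0 in delGLN3, delSWI4 and delZAP1, and in delGLN3 it differed from wild type.

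In delGLN3 CYS3 scored -3.05, -3.19, -1.64 and -2.15 at t90 in flasks 1, 2, 3 and 5 and -1.87, -2.09 and -1.61 at t120 in flasks 2, 4 and 5. In wild type it scored -0.31, -0.40, 1.94 and 1.93 at t90 in flasks 0, 2, 3 and 4 and -0.47, 1.06, -1.49, 0.70 and 0.59 at t120 in flasks 0 to 4. All 7 delGLN3 values lay below all 9 wild-type values, and the share of all frames that separate so was not counted. The fitted delGLN3 score was -2.14 ± 0.29 (adjusted p = 0.0015), and the difference from wild type was -2.62 ± 0.49 (adjusted p = 0.0046). Leaving out any 1 flask of either strain kept both calls. At t120 alone the score was -1.80 (adjusted p = 0.054) and the difference -1.85 (adjusted p = 0.28).

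CYS3 in delSWI4 scored -1.37, -1.16, -0.95 and -1.07 at t90 and -1.84, -0.93, -1.10 and -0.16 at t120, all below 0. The fitted recovery score was -1.07 ± 0.26 (adjusted p = 0.0073), lost without flask 2 (-1.08, adjusted p = 0.057). The difference from wild type was -1.58 ± 0.48 (adjusted p = 0.098), and passed the threshold without wild-type flask 0 (-1.87, adjusted p = 0.043) or flask 2 (-1.98, adjusted p = 0.032). In delZAP1 CYS3 scored -1.25, -0.06, -0.22 and -1.64 at t90 and -1.62, -0.31, -1.20 and -1.71 at t120, also all below 0. Its fitted score was -1.0 ± 0.25 (adjusted p = 0.02), lost without flask 2 (-0.86, adjusted p = 0.088), flask 4 (-1.10, adjusted p = 0.054) or flask 5 (-0.78, adjusted p = 0.24).

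In delHMO1 the CYS3 scores spread widely between flasks. Flask 4 scored -4.51 at t15, -3.65 at t30, -3.48 at t60, -3.11 at t90 and -3.96 at t120. Flask 3 scored 1.96 and -0.59 at t15 and t30, and -6.24, -4.30 and -4.79 at t60, t90 and t120. Flasks 1 and 2 lay between -1.22 and 1.50 at all 5 times, so that flask 4 was the lowest at t15 and t30 and flask 3 at the later times. The recovery score of -1.94 ± 0.95 had an adjusted p of 0.93.

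Over the 6 deletion strains, 15 of 60 tests of the 10 genes passed in the cold, 12 of them higher and 3 lower. Per strain 1 of the 10 passed in delCIN5, 4 in delGLN3, 5 in delHAP4, none in delHMO1, 3 in delSWI4 and 2 in delZAP1. Of all frames 15.1% passed in delCIN5, 19.3% in delGLN3, 31.4% in delHAP4, 0.33% in delHMO1, 29.4% in delSWI4 and 24% in delZAP1. The share of the 10 was above that of all frames in delGLN3 and delHAP4, and close to or below it in delCIN5, delSWI4 and delZAP1. The 10 genes were chosen with earlier results of these data known, so that these shares are no test of the set. In delHMO1 1 of the 10 had an unadjusted p below 0.05 in the cold.

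In recovery 5 of 60 tests passed, 1 higher and 4 lower. They were 1 in delGLN3, 2 in delSWI4 and 2 in delZAP1, with none in delCIN5 (2 at an unadjusted p below 0.05), delHAP4 (0) or delHMO1 (0) by limma. Of all frames 4.38% passed in delCIN5, 3.9% in delGLN3, 2.24% in delHAP4, 0.033% in delHMO1, 14.7% in delSWI4 and 6.18% in delZAP1. Of the 26 calls against t0, wild type included, 10 were lost in 1 fit of all strains, which then share 1 variance per frame (adjusted p from 0.05 to 0.55). They were MET14 at t30 and t90 and SAM2 at t90 in wild type, MET5 in delGLN3, MET3 and SAM2 in delHAP4 and SAM2 in delZAP1 in the cold, and MET16 and CYS3 in delSWI4 and CYS3 in delZAP1 in recovery. At t60 or t120 alone 8 of the 20 calls in deletion strains were lost, 5 of them in delGLN3, with the others SAM2 in delHAP4 and MET16 and CYS3 in delSWI4. In delZAP1 9 of the 10 estimates were below 0 in recovery, with a median of -1.13 against 0.00 over all frames.

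Of 120 tests against wild type 6 passed, 3 higher and 3 lower: MET2 in delGLN3 and delHAP4, SAM2 in delSWI4 in both phases, CYS3 in delGLN3 and MET3 in delZAP1. The deletion strains share the same wild-type flasks in these comparisons. At t60 alone or t120 alone none of these 6 passed (limma adjusted p from 0.12 to 0.76). In the cold 0% of frames differed in delCIN5 (442 of 6126 at an unadjusted p below 0.05), 0.348% in delGLN3, 0.201% in delHAP4, 0.0496% in delHMO1, 0.148% in delSWI4 and 0.0818% in delZAP1. In recovery the shares were 0.0649% in delCIN5, 0.848% in delGLN3, 0.0342% in delHAP4, 0.099% in delHMO1, 1.21% in delSWI4 and 0.296% in delZAP1.

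**Figure D5:**
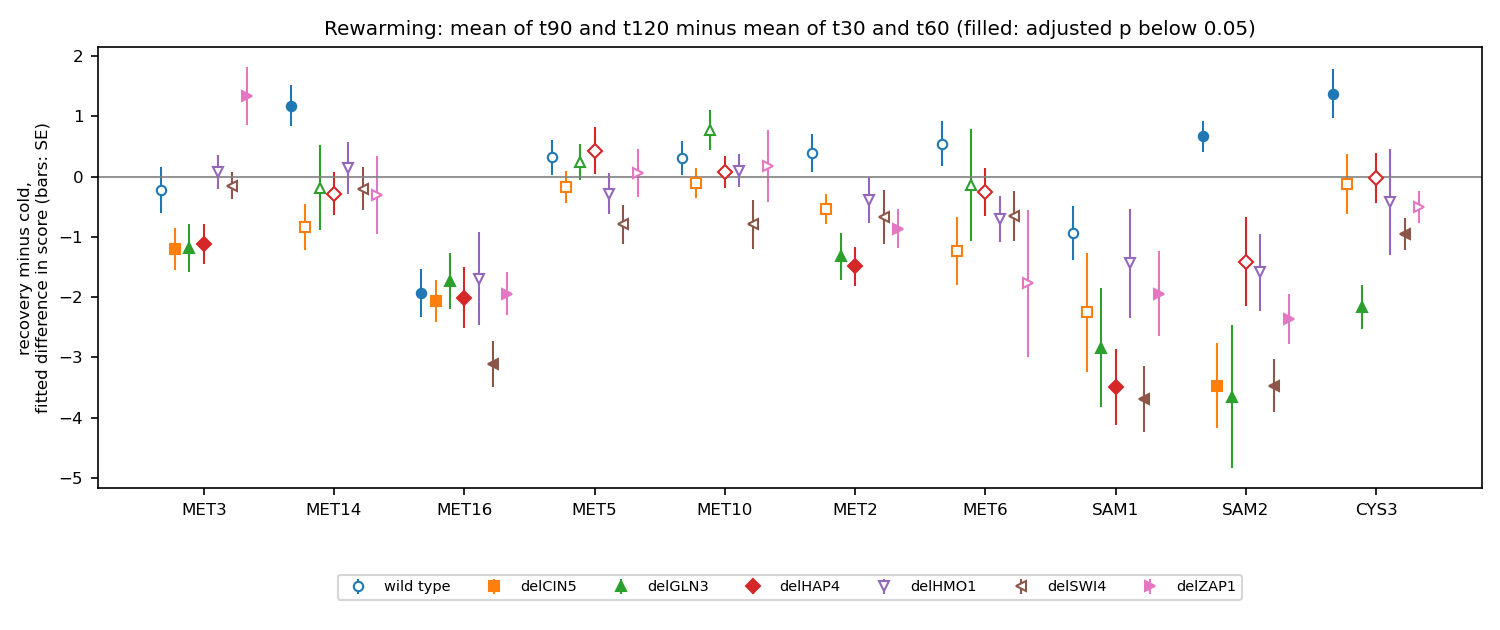
Fitted rewarming difference (mean of t90 and t120 minus mean of t30 and t60, in score units) of each gene and strain; vertical bars are SE and filled symbols mark an adjusted p below 0.05. MET16 lies below 0 in all 7 strains, from -3.11 to -1.69, and CYS3, SAM2 and MET14 lie above 0 in wild type.

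Rewarming compares phases that share the t0 sample of their flask. MET16 fell on rewarming in 6 of 7 strains, with differences of -1.93 ± 0.40 in wild type (adjusted p = 0.00039), -2.07 ± 0.35 in delCIN5 (adjusted p = 0.00016), -3.11 ± 0.38 in delSWI4 (adjusted p = 1.7e-06) and -1.94 ± 0.35 in delZAP1 (adjusted p = 0.00022). These 4 calls were kept in every alternative. In delGLN3 it fell by 1.73 ± 0.46 (adjusted p = 0.012), lost without flask 5 (-1.82, adjusted p = 0.051). In delHAP4 it fell by 2.01 ± 0.51 (adjusted p = 0.0057), lost without flask 2 (-1.54, adjusted p = 0.15) or flask 3 (-1.46, adjusted p = 0.075). In delHMO1 the difference was -1.69 ± 0.77 (adjusted p = 0.21), and without flask 3 -2.87 (adjusted p = 0.0001). With the sign of delHMO1 flask 2 turned it was -0.80 and with that of flask 4 turned -0.14.

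The arrays that resembled the other phase also stood out in MET16. In delHMO1 flask 3 it scored 0.14 at t60 and 5.51 at t90, and in delHAP4 flask 4 it scored 4.49 at t90 against 1.13 and -0.18 in flasks 2 and 3. MET16 is 1 of the frames in the profile by which those arrays were identified.

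SAM1 fell on rewarming in delSWI4 (-3.69 ± 0.54, adjusted p = 1.5e-05) and in delHAP4 (-3.49 ± 0.63, adjusted p = 0.00043), calls kept in every alternative. It fell by 2.84 ± 0.99 in delGLN3 (adjusted p = 0.047), lost without flask 1 (-3.54, adjusted p = 0.056), flask 3 (-2.37, adjusted p = 0.15), flask 4 (-2.41, adjusted p = 0.17) or flask 5 (-2.72, adjusted p = 0.14). In delZAP1 it fell by 1.94 ± 0.71 (adjusted p = 0.039), lost without flask 2 (-1.95, adjusted p = 0.12) or flask 3 (-1.49, adjusted p = 0.16). In wild type it was -0.93 ± 0.45 (adjusted p = 0.1), and without flask 3 -1.73 (adjusted p = 0.0016). In delHMO1 it passed only without flask 3 (-2.06, adjusted p = 0.046) or without the arrays that resembled the other phase (-2.26, adjusted p = 0.022).

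SAM2 fell on rewarming in delCIN5 (-3.47 ± 0.71, adjusted p = 0.00098), in delSWI4 (-3.47 ± 0.44, adjusted p = 2.9e-06) and in delZAP1 (-2.36 ± 0.41, adjusted p = 0.00013), each call kept in every alternative tried. It fell by 3.65 ± 1.19 in delGLN3 (adjusted p = 0.034), lost without flask 1 (-3.86, adjusted p = 0.088), flask 3 (-2.51, adjusted p = 0.16) or flask 4 (-2.76, adjusted p = 0.23). In delHMO1 the difference was -1.59 ± 0.64 (adjusted p = 0.15), and without flask 3 -2.13 (adjusted p = 0.0017). In delHAP4 it was -1.41 ± 0.74 (adjusted p = 0.16), and without the array that resembled the cold -1.93 (adjusted p = 0.042). In wild type SAM2 rose, by 0.67 ± 0.26 (adjusted p = 0.046). At t120 minus t60 the difference was 0.12 (adjusted p = 0.86). The call was also lost with no block (adjusted p = 0.078), with flask as a fixed block (adjusted p = 0.061), on Ontario chips alone (0.58, adjusted p = 0.2) and in 1 fit of all strains (adjusted p = 0.45). That rise missed the threshold without flask 0 (0.62, adjusted p = 0.097), flask 1 (0.66, adjusted p = 0.12), flask 3 (0.51, adjusted p = 0.23) or flask 4 (0.69, adjusted p = 0.064). The difference in rewarming between strains was not tested as such.

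In wild type CYS3 rose on rewarming by 1.38 ± 0.41 (adjusted p = 0.01), lost without flask 3 (0.83, adjusted p = 0.19) or flask 4 (1.15, adjusted p = 0.052). Flasks 3 and 4 are the Cy3 flasks of wild type. At t90 CYS3 scored 1.94 and 1.93 there, against -0.31 and -0.40 in the Cy5 flasks 0 and 2. MET14, SAM1 and SAM2 at t90 were also highest in flasks 3 and 4, and MET16 and MET10 in flask 0. The part of the dye in recovery alone was not tested. CYS3 fell on rewarming in delGLN3 (-2.16 ± 0.37, adjusted p = 0.00058) and in delSWI4 (-0.95 ± 0.27, adjusted p = 0.0075). MET14 rose in wild type by 1.18 ± 0.34 (adjusted p = 0.0082), lost without flask 3 (0.99, adjusted p = 0.067). Taking t120 minus t60 in place of the means turned its sign to -0.49 (adjusted p = 0.51), and the MET14 scores at t120 lay below those at t90 in every flask that has both.

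In delCIN5 MET3 scored -1.09 in recovery (adjusted p = 0.075), and without flask 1 -1.31 (adjusted p = 0.048). MET3 fell on rewarming in delCIN5 (-1.20 ± 0.35, adjusted p = 0.013), delGLN3 (-1.19 ± 0.40, adjusted p = 0.041) and delHAP4 (-1.12 ± 0.33, adjusted p = 0.015). It rose in delZAP1 (1.34 ± 0.48, adjusted p = 0.037), where it had been lowest in the cold. The delCIN5 call was lost without flask 4 (-0.98, adjusted p = 0.09), and that of delHAP4 without flask 2 (-1.11, adjusted p = 0.067) or flask 3 (-0.76, adjusted p = 0.19). The delGLN3 call was lost without any 1 of flasks 1 to 5 (-1.30 to -1.10, adjusted p from 0.059 to 0.12), and that of delZAP1 without any 1 of flasks 2 to 5 (1.17 to 1.58, adjusted p from 0.057 to 0.16). MET2 fell in delHAP4 (-1.49 ± 0.32, adjusted p = 0.0018), delGLN3 (-1.32 ± 0.39, adjusted p = 0.02) and delZAP1 (-0.86 ± 0.32, adjusted p = 0.045). The delGLN3 call for MET2 was lost without flask 1 (-0.79, adjusted p = 0.22) or flask 4 (-1.08, adjusted p = 0.16), and that of delZAP1 without flask 3 (-0.60, adjusted p = 0.24), flask 4 (-0.89, adjusted p = 0.13) or flask 5 (-0.94, adjusted p = 0.09). MET5 in delSWI4 changed on rewarming past the threshold only without flask 4 or under some other settings, at -1.03 (adjusted p = 0.044) without flask 4 and -0.79 ± 0.32 (adjusted p = 0.054) with all flasks.

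Over the 7 strains 26 of 70 rewarming tests passed, 22 lower and 4 higher in recovery. In wild type 4 passed, in delCIN5 3, in delGLN3 6, in delHAP4 4, in delHMO1 none (limma; 2 at an unadjusted p below 0.05), in delSWI4 4 and in delZAP1 5. Of all frames 37.4% passed in wild type, 28.1% in delCIN5, 20.8% in delGLN3, 31.7% in delHAP4, 1.61% in delHMO1, 42.8% in delSWI4 and 34% in delZAP1. With t120 minus t60 in place of the means 14 of the 26 calls were lost (adjusted p from 0.068 to 0.86). They were MET14, SAM2 and CYS3 in wild type, MET3 in delCIN5, all 6 in delGLN3, CYS3 in delSWI4, and MET3, MET2 and SAM1 in delZAP1. With no block 5 were lost (SAM1 in delGLN3, SAM2 in wild type, and MET3, MET2 and SAM1 in delZAP1). The median difference of the 10 was 0.36 in wild type and lay between -1.26 and -0.41 in the deletion strains, against -0.03 to 0.04 over all frames.

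The 10 genes did not move as one. Over the 34 group means 39 of 45 pairs correlated above 0, with a median r of 0.27, and over flasks within groups 33 of 45 did, with a median of 0.07. The group means of a strain share t0 samples. With every gene scaled to the same SD, the correlation with the mean of the other 9 was highest for MET16 (r = 0.74), SAM2 (0.72), SAM1 (0.63) and MET2 (0.58) and lowest for MET10 (0.03). Outside the 10, the frames most like their mean without that scaling, in which MET16, SAM1 and SAM2 weigh most, were, over the 34 group means, SER33 (r = 0.78), LIP5 (0.76), MXR1 (0.72), TIF3 (0.71) and YIR042C (0.69). SER33 encodes a phosphoglycerate dehydrogenase of serine synthesis, LIP5 a lipoic acid synthase and MXR1 a methionine sulfoxide reductase.

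Another 40 genes of sulfur metabolism were set beside the 10. In wild type 3 rose and 1 fell at t15, 5 rose and 4 fell at t30 and again at t60, 2 rose at t90 and 1 at t120. These are 10%, 22.5%, 22.5%, 5% and 2.5% of the 40, against 10.8%, 15.1%, 15.7%, 5.6% and 2.69% of all frames. Of the 5 genes of transsulfuration and glutathione 2 rose and 1 fell at t60, and of the 9 genes of the S-adenosylmethionine cycle and salvage 1 rose and 3 fell.

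Upward in wild type at t60 moved STR2 (2.19 ± 0.38, adjusted p = 0.00025), a cystathionine gamma-synthase, and HOM3 (2.01 ± 0.54, adjusted p = 0.011), aspartate kinase. SAH1 (1.53 ± 0.35, adjusted p = 0.0034), which hydrolyses S-adenosylhomocysteine, CYS4 (1.37 ± 0.36, adjusted p = 0.0089), cystathionine beta-synthase, and MET22 (1.49 ± 0.41, adjusted p = 0.014), which removes the by-product of PAPS reduction, rose as well. MET12, a methylenetetrahydrofolate reductase, rose at t15 (1.62 ± 0.34, adjusted p = 0.0026) and at t30. Downward at t60 moved MHT1 (-2.98 ± 0.55, adjusted p = 0.0005), which recycles S-methylmethionine, the salvage genes ADI1 (-2.18 ± 0.49, adjusted p = 0.0029) and MRI1 (-1.34 ± 0.38, adjusted p = 0.015), and the glutathione synthetase GSH2 (-1.54 ± 0.43, adjusted p = 0.016). At t30 the methylenetetrahydrofolate reductase MET13 (-1.25 ± 0.41, adjusted p = 0.04) and the methionine permease MUP1 (-1.04 ± 0.36, adjusted p = 0.048) were lower too. None of the 6 regulators MET4, MET28, MET31, MET32, CBF1 and MET30 passed the test in wild type at any time. In the cold 1 of the 6 was lower in delCIN5, 1 was higher in delGLN3 and in delHAP4, and 1 was higher and 2 were lower in delZAP1. The lower ones were CBF1 in delCIN5 (-0.82 ± 0.27, adjusted p = 0.044) and in delZAP1 (-0.74 ± 0.24, adjusted p = 0.027). In delZAP1 MET28 was lower too (-1.41 ± 0.36, adjusted p = 0.0068). The higher one, picked out after the values were seen, was MET30 each time, the F-box protein that directs ubiquitination of Met4, at 1.61 ± 0.34 in delGLN3 (adjusted p = 0.0028), 1.03 ± 0.25 in delHAP4 (adjusted p = 0.0041) and 1.83 ± 0.25 in delZAP1 (adjusted p = 4.7e-05). On rewarming 1 regulator rose and 1 fell in delCIN5, and 1 rose and 2 fell in delSWI4. In delHAP4 (5 tested) and in delZAP1 1 fell. Of all frames 28.1% passed on rewarming in delCIN5, 42.8% in delSWI4, 31.7% in delHAP4 and 34% in delZAP1.

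CYS4 was called higher in the cold (in wild type at t60) in 6 of 7 strains, at 1.13 to 2.14 over all 7, against 5 for MET16. On rewarming it was called lower in 6 of 7, at -3.36 to -1.63 over all 7. SAH1 was called higher in the cold in 5 of 7 strains and lower on rewarming in 5. GSH2 was lower in the cold in 5 and ADI1 in 6. In the cold these were the most often called of the 40, and how many of all frames were called as often was not counted. Of all frames 15.1% to 31.4% passed in the cold and 20.8% to 42.8% on rewarming, except in delHMO1 (0.33% and 1.61%). In recovery wild type showed HOM2 at t90 (1.86 ± 0.41, adjusted p = 0.0054), an enzyme that acts after aspartate kinase, and ADO1, adenosine kinase, at t90 (1.50 ± 0.42, adjusted p = 0.034) and t120 (1.75 ± 0.38, adjusted p = 0.0088). On rewarming 7 of the 40 rose and 7 fell in wild type, 35% against 37.4% of all frames. Among them were MHT1 (2.44 ± 0.45, adjusted p = 0.00013), ADI1 (2.24 ± 0.40, adjusted p = 8.6e-05), HOM6 (1.27 ± 0.34, adjusted p = 0.0045) and MDE1 (0.98 ± 0.33, adjusted p = 0.022) upward, and HOM3 (-2.06 ± 0.44, adjusted p = 0.00058) and GSH1 (-0.89 ± 0.30, adjusted p = 0.019) downward.

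In the deletion strains between 0 and 7 of the 40 (39 tested in delHAP4) rose and between 0 and 9 fell in the cold. The share called was 15% in delCIN5, 17.5% in delGLN3, 30.8% in delHAP4, 0% in delHMO1, 22.5% in delSWI4 and 32.5% in delZAP1. It was above that of all frames (24%) in delZAP1 and close to or below it in the other strains. MUP1, lower than t0 in wild type at t30, was higher in the cold in delGLN3 (2.20 ± 0.59, adjusted p = 0.014) and in delHAP4 (1.18 ± 0.37, adjusted p = 0.021). Its cold estimates, with wild type at t60, were above 0 in 6 of 7 strains. In delGLN3 MUP1 differed from wild type in the cold by 2.99 ± 0.66 (adjusted p = 0.023). ADO1 differed there in recovery by -2.21 ± 0.45 (adjusted p = 0.0095). Each was 2.5% of the 40, against 0.348% of all frames in the cold and 0.848% in recovery. MET17, absent from BY4741 but not from wild-type flask 0, passed the test in no wild-type comparison. Its estimates there ran from -0.91 to 0.38 (limma adjusted p from 0.35 to 0.94).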

How the data were processed

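The deposited values are scores, 1 per open reading frame and array, that the authors made with limma, per the submitters' processing notes. Not given in the sources used here are its version, the background correction and the normalization. The scaled median absolute deviation was 0.997 to 1.003 on every array, so that a score is a scaled log ratio and not the log2 ratio that the design had assumed. Of all values 3.95% were missing, and 22 of the 1370 values of the 10 genes. Arrays held 5041 to 6158 frames. Unmapped columns numbered 0. Precision is limited by how many arrays there are; signal intensities were not used. Of 6178 frames, 5674 matched a locus tag.

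From the scores, limma 3.58.1 (R 4.3.3) fitted 1 mean per time with flask as a random block (duplicateCorrelation), separately per strain or per pair of strains, and p-values were adjusted over all frames (Benjamini-Hochberg). At least 2 flasks per group were required (1 in the fit on coated slides), and a frame with a missing value kept its other arrays. The fit was first tried on simulated scores of wild type t60 and of delZAP1 in the cold and on rewarming. It was also tried on delZAP1 minus wild type in the cold, and no other comparison was simulated. The 36 comparisons were repeated without each flask, with a threshold of 0.01, without the block, with a fixed block and with a dye term. They were also repeated on Ontario chips alone, at t60 and t120 alone and in 1 fit of all strains. Further repeats were made with robust variances, after centring each array, and on frames without missing values. Added after the data were seen were fits with delHMO1 signs turned, fits without the 4 arrays resembling the other phase, and delSWI4 against wild type on PEG-coated slides alone. Within a strain a flask number is a flask; across strains it pairs nothing. The sources used here do not say which flasks were grown together, so day is no term of the fits.

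The 10 genes and the lists were chosen with earlier results of these data known. Named besides them are the pathway genes called in wild type, MET17, the members of the regulator list and the 5 frames most like the mean of the 10; ADO1 and MUP1 are among the former. No promoter or protein sequences were used here, so that no motif was searched. Tables and plots used Python 3.11.15, pandas 2.3.3, numpy 2.4.6 and matplotlib 3.10.9.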

Additional observations from a re-analysis of the deposited data

Results flagged for a closer look

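Of 303 groups of 4 or 5 flasks tested for a sample far from the others, 12 held one by Dixon's criterion, and chance gives about 1 in 20. SAM2 had 4 of them: 3.70 in delCIN5 t15 flask 4 (others 0.04 to 0.63), -5.16 in delGLN3 t60 flask 2 (others 2.72 to 4.23), -1.47 in delHMO1 t15 flask 4 (others 1.12 to 1.26) and 0.63 in delZAP1 t60 flask 2 (others 2.46 to 2.64). The delGLN3 array also held CYS3 at -2.03 (others 0.12 to 0.45), and it is one of the arrays that resembled the other phase. MET3 was -0.19 in delSWI4 t120 flask 1 (others 0.42 to 0.50) and 0.34 in delZAP1 t120 flask 3 (others -2.56 to -2.12). MET10 was 0.11 in delCIN5 t15 flask 3 (others -0.76 to -0.63) and -0.13 in delGLN3 t30 flask 5 (others -1.51 to -1.45). MET14 was 1.39 in delHMO1 t120 flask 1 (others -0.54 to -0.28), MET5 was -1.02 in delHMO1 t90 flask 2 (others -0.05 to 0.13), and MET6 was 3.22 in delSWI4 t90 flask 1 (others -1.24 to -0.76). The direction of the delHMO1 ratios is not settled.

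The response to the shift differed between a deletion strain and wild type in 6 tests of the difference itself (limma, adjusted over all frames). In the cold these were MET2 in delGLN3 (2.07, adjusted p = 0.011) and in delHAP4 (2.01, adjusted p = 0.015), SAM2 in delSWI4 (2.34, adjusted p = 0.025) and MET3 in delZAP1 (-2.69, adjusted p = 0.042). In recovery they were CYS3 in delGLN3 (-2.62, adjusted p = 0.0046) and SAM2 in delSWI4 (-1.80, adjusted p = 0.04). All delHAP4 slides and those of delSWI4 flasks 2 to 4 were uncoated, and on coated slides alone the last of these was 0.03 (adjusted p = 1).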

How the results depend on the processing

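The counts of the 10 genes past the threshold depended on the processing in these cases, each given as the reported count and then the other; the cause was not tested. In 1 fit of all strains the count went for delCIN5 cold from 1 to 2, delCIN5 recovery from 0 to 1, delGLN3 recovery from 1 to 2, delHAP4 cold from 5 to 3, delHAP4 minus wild type cold from 1 to 0, delHMO1 cold from 0 to 2, delHMO1 rewarming from 0 to 1, delSWI4 minus wild type cold from 1 to 0, delSWI4 minus wild type recovery from 1 to 0, delSWI4 recovery from 2 to 0, wild type t30 from 2 to 1, wild type t90 from 2 to 0. On Ontario chips alone the count went for delGLN3 minus wild type cold from 1 to 0, delHAP4 minus wild type cold from 1 to 0, delSWI4 minus wild type cold from 1 to 0, delSWI4 minus wild type recovery from 1 to 0, wild type t30 from 2 to 1. At an adjusted p below 0.01 the count went for delGLN3 minus wild type cold from 1 to 0, delGLN3 rewarming from 6 to 1, delHAP4 cold from 5 to 3, delHAP4 minus wild type cold from 1 to 0, delSWI4 minus wild type cold from 1 to 0, delSWI4 minus wild type recovery from 1 to 0, delSWI4 recovery from 2 to 1, delZAP1 minus wild type cold from 1 to 0, delZAP1 recovery from 2 to 1, delZAP1 rewarming from 5 to 2, wild type rewarming from 4 to 2, wild type t30 from 2 to 1, wild type t90 from 2 to 0. With a dye orientation term the count went for delCIN5 cold from 1 to 2. With flask as a fixed replicate block the count went for delGLN3 rewarming from 6 to 3. With the flask number as a replicate block across strains the count went for delSWI4 minus wild type cold from 1 to 2, delSWI4 minus wild type recovery from 1 to 2, delZAP1 minus wild type cold from 1 to 2, delZAP1 minus wild type recovery from 0 to 3. On frames measured on every array the count went for delGLN3 minus wild type recovery from 1 to 0 (6 tested), delGLN3 recovery from 1 to 0 (7 tested), delZAP1 minus wild type cold from 1 to 0 (6 tested), wild type rewarming from 4 to 2 (7 tested), wild type t30 from 2 to 1 (7 tested), wild type t90 from 2 to 1 (7 tested). With no replicate block the count went for delCIN5 cold from 1 to 3, delCIN5 recovery from 0 to 1, delGLN3 minus wild type recovery from 1 to 2, delHMO1 cold from 0 to 1, delSWI4 minus wild type cold from 1 to 2, delSWI4 recovery from 2 to 4, delZAP1 minus wild type cold from 1 to 2, delZAP1 minus wild type recovery from 0 to 2, delZAP1 rewarming from 5 to 2. At t60 and t120 alone the count went for delCIN5 cold from 1 to 4, delGLN3 cold from 4 to 0, delGLN3 minus wild type cold from 1 to 0, delGLN3 minus wild type recovery from 1 to 0, delGLN3 recovery from 1 to 0, delGLN3 rewarming from 6 to 0, delHAP4 minus wild type cold from 1 to 0, delSWI4 minus wild type cold from 1 to 0, delSWI4 minus wild type recovery from 1 to 0, delSWI4 recovery from 2 to 0, delZAP1 minus wild type cold from 1 to 0, delZAP1 rewarming from 5 to 2, wild type rewarming from 4 to 1. Without the arrays that resembled the other phase the count went for delGLN3 minus wild type recovery from 1 to 2, delGLN3 recovery from 1 to 2, delHAP4 recovery from 0 to 1, delHMO1 cold from 0 to 2, delHMO1 rewarming from 0 to 3. On PEG-coated slides alone, which keep 1 delSWI4 flask, the count went for delSWI4 minus wild type cold and delSWI4 minus wild type recovery from 1 to 0. Leaving out each flask in turn gave counts of 0 to 0 for wild type t120, delHAP4 recovery, delHMO1 recovery, delCIN5 minus wild type cold, delHAP4 minus wild type recovery, delHMO1 minus wild type cold and delHMO1 minus wild type recovery, 0 to 1 for wild type t15, delCIN5 recovery, delHMO1 cold, delCIN5 minus wild type recovery, delGLN3 minus wild type cold, delHAP4 minus wild type cold, delSWI4 minus wild type recovery, delZAP1 minus wild type cold and delZAP1 minus wild type recovery, 0 to 2 for wild type t90, delZAP1 recovery and delSWI4 minus wild type cold, 0 to 3 for wild type t30 and delHMO1 rewarming, 1 to 1 for wild type t60, delGLN3 recovery and delGLN3 minus wild type recovery, 1 to 3 for delCIN5 cold, delSWI4 recovery and delZAP1 cold, 2 to 3 for delCIN5 rewarming and delZAP1 rewarming, 2 to 4 for wild type rewarming and delHAP4 rewarming, 2 to 5 for delGLN3 rewarming, 3 to 3 for delSWI4 cold, 3 to 4 for delGLN3 cold, 4 to 5 for delHAP4 cold and delSWI4 rewarming. For single genes 2 results turned their sign: MET14 on rewarming in wild type, at t120 minus t60, was -0.49 (adjusted p = 0.51), and SAM2 in delSWI4 minus wild type recovery, on PEG-coated slides alone, was 0.03 (adjusted p = 1). Of 58 calls, 26 were kept whichever flask was left out and 19 in all alternatives tried: 8 of the 15 MET16 calls, 4 of 6 for SAM1, 4 of 11 for SAM2, 2 of 7 for MET2 and 1 of 7 for MET3. Robust variances and centring of the arrays moved no count by over 1.5 times. The same flask number in different strains did not pair the samples (r of their deviations from -0.19 to 0.26), and among single genes the flask number as a replicate block changed MET16 in delZAP1 minus wild type cold to -2.22 (adjusted p = 0.0093).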
